A study of Mus musculus with 28 samples.

Results

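B cells of the mouse jugular vein were examined in veins made into a carotid–jugular arteriovenous fistula (AVF) and in control veins of the other side. In 3 single-cell libraries, a barcode was called a B cell when it held 200 to 6000 genes, at most 10% mitochondrial UMIs (molecules counted by their unique identifier), at least 2 UMIs over *Cd79a*, *Cd79b*, and *Ms4a1*, none of *Cd3d*, *Cd3e*, or *Cd3g*, under 0.5% of UMIs from *Lyz2*, *C1qa*, and *C1qb*, and under 1.5% from *Col1a1*, *Col1a2*, *Col3a1*, and *Dcn*. Of 16893 barcodes that passed the filters on genes and mitochondrial UMIs, 376 were B cells. Because the cells were chosen by their expression of these genes, the level of the genes in B cells against other cells is a description and not a finding.

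All samples came from male and female C57BL/6 mice with reduced kidney mass, which underwent subtotal nephrectomy and, some weeks later, surgery that joined a jugular vein with the carotid artery on its side. The control in both assays was the contralateral (CL) jugular vein, so control vessels also came from nephrectomized animals and were not joined to an artery. Single-cell RNA sequencing had 1 library each of CL veins, early AVFs, and late AVFs, made from pooled vessels of both sexes. By the paper's averages, these early and late AVFs were taken on later days than the bulk AVFs of the same name. Bulk RNA sequencing had 1 library per vessel, from 7 CL veins, 8 early AVFs (about 3 days), 5 mid AVFs (about 10 days), and 5 late AVFs (about 21 days), with females and males in every group, and nothing in the sources used here ties a CL vein to an AVF of the same mouse.

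B cells bind antigen through surface immunoglobulin (Ig), which signals through the Cd79a/Cd79b pair, and present the captured antigen to T cells on MHC class II. Naive B cells express *Ighm* and *Ighd* and recirculate through lymphoid tissue along chemokines such as *Cxcl13*. After activation they may switch to another heavy chain and become plasma cells, which lose most surface B cell genes and secrete antibody.

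The single-cell libraries differed in depth and in free RNA. Median UMIs per kept barcode were 2751 in the CL library, 8951 in the early AVF library, and 15425 in the late AVF library, whereas those of B cells were 2971, 4114, and 6995.5. Barcodes with at least 10% hemoglobin UMIs numbered 1342, 161, and 14, so the CL library held red cells or their RNA. Pairs of libraries shared 14 to 19 barcode sequences among all deposited barcodes, and 1 of these was a B cell in either library. Scrublet marked 0, 2, and 120 barcodes as doublets in the CL, early, and late libraries, none of them a B cell, and a caller that marks so few has not worked in the first 2 of these libraries. With 1 library per condition there is no test between conditions: the 95% intervals given for single-cell values cover counting error only.

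B cells made up 286 of 6319 kept barcodes in the CL library, 32 of 4753 in the early AVF library, and 58 of 5821 in the late AVF library. These shares were 4.53% (exact binomial interval 4.03 to 5.07), 0.673% (0.461 to 0.949), and 0.996% (0.757 to 1.29). The CL share lay above both AVF shares, whose intervals overlapped. Among barcodes with a UMI of *Ptprc*, the pan-leukocyte gene Cd45, B cells were 14.1% (12.5 to 15.8), 0.898% (0.598 to 1.295), and 1.88% (1.42 to 2.43). After each barcode was thinned to 1000 UMIs, the shares of all barcodes were 4.00%, 0.301%, and 0.258%, so the order of the 2 AVF libraries turned with depth and is not read as a difference.

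T cells, taken as barcodes with Cd3 genes, did not follow the same pattern. They numbered 195, 130, and 469, which was 3.09%, 2.74%, and 8.06% of kept barcodes. There were 1.47 B cells per T cell in the CL library (1.22 to 1.77), 0.246 in the early library (0.162 to 0.365), and 0.124 in the late library (0.0925 to 0.163). The 3 intervals did not overlap.

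**Figure D1:**
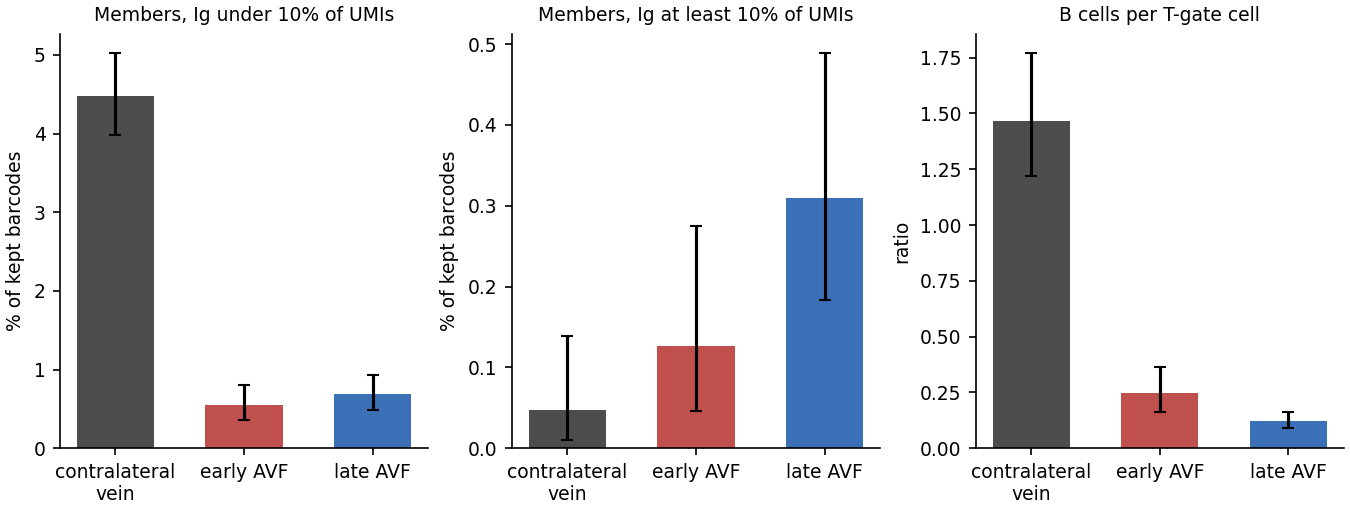
B cells in the 3 single-cell libraries, as a percent of kept barcodes for cells with Ig genes under 10% of UMIs (left) and at least 10% (middle), and as cells per T cell (right). Bars are 1 library each and whiskers are exact 95% intervals of counting error; B cells with low Ig went from 4.48% in CL veins to 0.547% and 0.687%, while those with high Ig went from 0.0475% to 0.126% and 0.309%.

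The limits of the rule excluded different barcodes in each library. With at least 2 UMIs of the B cell genes there were 302, 69, and 99 barcodes, of which the limit on *Lyz2*, *C1qa*, and *C1qb* alone removed 2, 35, and 28. Those removed held a median of 2.02%, 2.27%, and 1.53% of UMIs from the 3 macrophage genes, with the lowest at 1.72%, 0.548%, and 0.618%, whereas the highest value inside the limit was 0.341%, 0.283%, and 0.403%. On the side of fibroblast genes, the highest B cell held 1.42%, 0.389%, and 0.728% and the lowest excluded barcode 2.28%, 9.40%, and 1.73%. Without both limits the shares of B cells in the early and late libraries became 1.45% and 1.56%, still below the CL share. Exactly 2 UMIs were found in 30, 1, and 4 B cells. Another 132, 20, and 32 barcodes missed the rule with 1 UMI, and in the CL library *Ighm*, the IgM heavy chain, was detected in 36.4% of these, in 83.3% of cells with 2 UMIs, and in 95.3% of cells with 3 or more.

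Outside the genes of the rule, the genes that most separated B cells from all other barcodes in every library were *Vpreb3*, a chaperone-like protein of the immature receptor, the light chain genes *Iglc3* and *Igkc*, *Fcmr*, the IgM Fc receptor, and *Pou2af1*, a B cell coactivator. Their CPM (UMIs summed over cells and scaled to a total of 1000000) in B cells were at least 606, 348, 306, 270, and 215 times those of other barcodes in each of the 3 libraries. *Jchain*, *Ly6d*, *Mzb1*, *Iglc2*, *Pax5*, *Tnfrsf13c*, *Fcer2a*, *Ighd*, and *Iglc1* followed, at 69.0 to 211 times. *Ly6d*, a surface marker of the B lineage, stood at 184 times. These genes were measured in the same cells as the rule and are given as a check of the label, with no test. The light chain constant genes *Iglc1*, *Iglc2*, and *Iglc3* are close copies of one another, so the split of counts among them is uncertain, as it is between *Ighg2b* and *Ighg2c*.

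B cells fell into 2 kinds by the amount of Ig RNA they held. A limit of 10% of UMIs from Ig genes, set after the values were seen, separated them: below it the highest cell held 4.38%, 1.92%, and 2.45% in the CL, early, and late libraries, and above it cells held 26.5 to 37.1%, 17.7 to 43.5%, and 43.3 to 67.1%. No cell lay near the limit. Ig-high B cells numbered 3 of 286, 6 of 32, and 18 of 58, or 1.05%, 18.8%, and 31.0% of B cells. Ig-low B cells, the remaining 283, 26, and 40, were 4.48% (3.98 to 5.02), 0.547% (0.358 to 0.800), and 0.687% (0.491 to 0.935) of kept barcodes. Ig-high B cells were 0.0475% (0.00979 to 0.139), 0.126% (0.0463 to 0.275), and 0.309% (0.183 to 0.488) of kept barcodes. The late share lay above the CL share beyond counting error, and the early share overlapped both. These shares were not set to equal depth, and median UMIs per kept barcode were 2751, 8951, and 15425. A deeper cell reaches the 2 UMIs of the rule more easily, and the part of depth in this order was not tested. Ig-high B cells were deep, with a median of 6486, 31861.5, and 47616 UMIs against 2951, 3784.5, and 5728 in Ig-low B cells. They held 43.3%, 90.3%, and 89.6% of all Ig UMIs of their library.

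**Figure D2:**
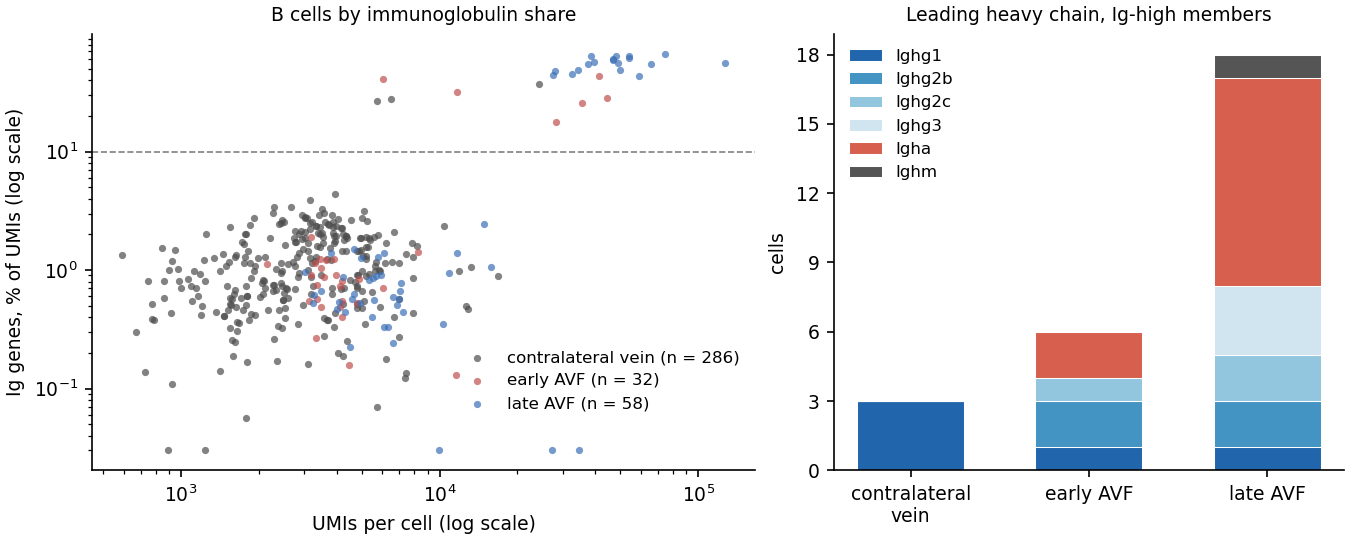
Each point is a B cell, with its UMIs and the percent of them from Ig genes on log scales; points at or under 0.03% are drawn at 0.03% and the dashed line marks 10%. The bars on the right count the heavy chain with the most UMIs in the 3, 6, and 18 Ig-high B cells, of which 0, 2, and 9 led with *Igha*.

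Ig-high B cells carried the genes of antibody secretion. *Jchain*, which joins IgA and IgM into polymers, *Xbp1*, the transcription factor of the secretory response, and *Mzb1*, an endoplasmic reticulum chaperone, had UMIs in all 3, 6, and 18 of them. *Jchain* was counted among the Ig genes that set Ig-high B cells apart, so its presence in them is a description. In Ig-low B cells *Jchain* was found in 5 of 283, 1 of 26, and 4 of 40 cells. There *Xbp1* was found in 40, 0, and 9 cells and *Mzb1* in 71, 13, and 14. *Prdm1*, which represses the B cell program, was found in 0, 6, and 13 Ig-high B cells, and *Tnfrsf17*, the survival receptor of plasma cells, in 1, 1, and 17. *Pax5* was found in none of the 27. *Ms4a1* still had a UMI in 1, 3, and 7 of them.

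The heavy chains used by Ig-high B cells differed among libraries. The 3 cells of the CL library led with *Ighg1*. Those of the early library led with *Ighg2b* in 2 cells, *Igha* in 2, *Ighg1* in 1, and *Ighg2c* in 1. In the late library *Igha*, the IgA heavy chain, led in 9 of 18 cells, *Ighg3* in 3, *Ighg2b* in 2, *Ighg2c* in 2, *Ighg1* in 1, and *Ighm* in 1. In every Ig-high B cell the leading chain made up at least 95.4% of heavy chain UMIs, and *Igkc*, the kappa light chain, made up 98.0%, 99.5%, and 99.6% of light chain UMIs in the 3 libraries.

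Some Ig-high B cells shared their heavy chain, heavy variable gene, and leading variable gene among those of the kappa chain. *Iglv1*, a lambda variable gene, was set aside here, although it had more UMIs than any kappa variable gene in many of these cells, among them 1 of the 3 CL cells and both *Ighg3* cells named next. All 3 cells of the CL library shared *Ighg1*, *Ighv1-15*, and *Igkv2-109*. In the late library 3 cells shared *Igha*, *Ighv3-6*, and *Igkv4-80*, and 2 with *Ighg3*, *Ighv1-80*, and *Igkv4-68*, while the 6 cells of the early library had 6 different combinations. Barcodes within these sets differed at 10 to 14 positions. The matrices hold counts per variable gene and no junction sequence, and it was not tested whether such cells belonged to a clone. UMIs of cell division genes (*Mki67*, *Top2a*, and 6 others) numbered at least 3 in 2, 4, and 4 Ig-high B cells, with 99 and 121 UMIs in a pair of early cells and 111 in 1 late cell, and in 1, 0, and 3 Ig-low B cells.

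Most Ig-low B cells of each library expressed unswitched heavy chains. *Ighm* was the leading heavy chain in 258 of 283, 20 of 26, and 38 of 40 cells, and at least 2 UMIs of a switched chain were found in 6, 1, and 4 cells. *Ighm* had a UMI in 95.1%, 100%, and 97.5% of Ig-low B cells, against 11.5%, 4.15%, and 16.4% of fibroblasts, which do not express it and had median depths of 4700, 21078.5, and 24704 UMIs. *Ighm* and *Ighd* occurred together in 137 (48.4%), 19 (73.1%), and 22 (55.0%) Ig-low B cells. *Rag2*, *Dntt*, *Vpreb1*, *Vpreb2*, and *Igll1*, genes of receptor rearrangement and of the surrogate light chain in precursors, had 0 UMIs in Ig-low B cells of all libraries, as did *Cd5*, a marker of B-1a cells. *Rag1*, the partner of *Rag2*, had 12 UMIs in 6 cells (2.12%) of the CL library and 0 in the AVF libraries. T cells of the CL library also held *Rag1* UMIs, and those of the AVF libraries held none. *Tbx21*, a factor of age-associated B cells, had 1 UMI in Ig-low B cells of the CL and 1 in those of the late library.

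Expression in B cells was then compared between the libraries as a ratio of summed CPM, for genes with a mean of at least 100 CPM in the pair of libraries, and a gene was counted when it differed by at least 2-fold. Over all B cells, 10.6% of 1291 genes were higher and 27.6% lower in the early AVF library than in CL veins, 9.36% of 1122 were higher and 47.6% lower in the late library, and 3.71% of 890 were higher and 14.7% lower in late than in early. Ig genes took 2.46%, 18.6%, and 42.4% of all B cell UMIs in the 3 libraries, which lowers the CPM of every other gene. In the early and late libraries 4 of 4 and 4 of 5 measured switched heavy chain genes and 4 of 5 and 3 of 4 plasma cell genes were at least 2-fold higher over all B cells. The comparisons that follow are of Ig-low B cells alone, where 7.65% of 1386 genes were higher and 14.6% lower in the early library, and 11.1% of 1456 higher and 14.4% lower in the late library. Over these genes the median log2 ratio was -0.12 in the early and -0.03 in the late library. In T cells, measured the same way, 4.77% of 1425 genes were higher and 4.7% lower in the early library, and 7.57% of 1480 higher and 2.36% lower in the late library.

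Genes of the B cell receptor were in part lower in Ig-low B cells of the AVF libraries. Of 6 receptor genes that the rule did not use, 3 were at least 2-fold lower in the early library and 2 in the late library. None was higher, and the median log2 ratios were -0.74 and -0.70. All 6 were among the Ig genes that set Ig-low B cells apart, and they include the close copies *Iglc1*, *Iglc2*, and *Iglc3*. Their count is therefore a description. The signalling pair, *Cd79a* at 1485, 1140, and 722 CPM and *Cd79b* at 1166, 224, and 247 CPM, belongs to the rule, and because 2 UMIs are a smaller share of a deeper cell its levels are given without a comparison. *Ighm* had 4768, 1527, and 1418 CPM, with ratios of 0.320 (0.273 to 0.373) and 0.297 (0.269 to 0.328). *Ighd*, which is spliced from the same transcript as *Ighm* in naive cells, had 372, 575, and 221 CPM, higher in the early library at 1.55 (1.17 to 2.02) and lower in the late library at 0.594 (0.451 to 0.773). *Igkc* differed less, at 4971, 4247, and 3643 CPM. At least 3 light chain UMIs were found in 255, 25, and 36 Ig-low B cells. Of these, 139, 11, and 18 reached 80% for neither kappa nor lambda. The part of free RNA in the light chain values was not tested.

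Coreceptors and inhibitory receptors were lower as well. Of 6 measured genes in each comparison, leaving out *Ms4a1* (Cd20), which the rule used, 4 were at least 2-fold lower in the early library and 5 in the late library, and none was higher. The median log2 ratios were -1.51 and -2.05. *Ms4a1* had 1906, 494, and 399 CPM. *Siglecg*, an inhibitory lectin that sets the threshold of receptor signalling, had 371, 89.8, and 56.0 CPM, and *Fcrla*, an intracellular Fc receptor homolog, had 237, 35.9, and 42.9. *Cd22*, another inhibitory lectin, had 265, 162, and 52.7 CPM, so it was lower mainly in the late library, at 0.199 (0.112 to 0.330). Of the receptor signalling genes, 2 of 6 were at least 2-fold lower in each AVF library, among them *Syk*, the kinase that binds the receptor tails, at 442, 162, and 175 CPM.

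Transcription factors of the B lineage showed the same direction. At least 2-fold lower were 4 of 8 in the early library (median log2 ratio -0.98) and 7 of 8 in the late library (-1.504), and none was higher. *Pax5*, which holds B cell identity, had 468, 233, and 145 CPM, with ratios of 0.499 (0.322 to 0.741) and 0.310 (0.222 to 0.423). *Ebf1*, which acts with it, had 2286, 1545, and 884 CPM. Its UMIs were also found in 73.3%, 70.1%, and 94.8% of fibroblasts, which express this gene. *Spib* had 441, 62.9, and 142 CPM, *Pou2af1* 309, 126, and 138, and *Ikzf3* 384, 198, and 98.9. *Irf8* was the member with the least difference in the late library, at 420, 224, and 303 CPM.

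*Vpreb3* and *Ly6d*, which mark young B cells among others, stood out. *Vpreb3* had 574 UMIs in 51.2% of CL Ig-low B cells, 18 in 34.6% of early cells, and 4 in 10.0% of late cells, or 601, 162, and 13.2 CPM. Its ratios were 0.269 (0.158 to 0.429) in the early and 0.0219 (0.00596 to 0.0565) in the late library. In T cells, *Ly6d* had 97.8 CPM in the CL and 0 in the late library. In Ig-low B cells it had 1367, 413, and 218 CPM, with a ratio of 0.159 (0.122 to 0.204) in the late library. *Cd93*, which is carried by transitional B cells, had 62.8, 26.9, and 6.59 CPM, and *Tnfrsf13b*, the receptor Taci, had 157, 98.8, and 9.89. *Fam129c*, a B cell adaptor, had 250 CPM in the CL library and 18.0 and 9.89 in the AVF libraries, from 239, 2, and 3 UMIs. The values of *Cd93* in both AVF libraries and of *Tnfrsf13b* in the late library also rest on at most 3 UMIs each. *Cd40*, through which T cells help B cells, had 91.1, 26.9, and 13.2 CPM from 87, 3, and 4 UMIs.

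MHC class II genes were higher in Ig-low B cells of the AVFs. In the early library 6 of 10 were at least 2-fold higher and 1 lower (median log2 ratio 1.31), and in the late library 4 of 8 were higher and none lower (0.90). *H2-Aa*, the class II alpha chain, had 1777, 4975, and 4708 CPM, with ratios of 2.80 (2.54 to 3.08) and 2.65 (2.47 to 2.84). *H2-Ab1* and *H2-Eb1*, the beta chains, had ratios of 2.46 and 2.61 in the early and 2.82 and 2.41 in the late library, and *Cd74*, the invariant chain, 1.65 and 1.58. *H2-DMa*, which loads peptides, had 129, 359, and 284 CPM. *Ciita*, the class II transactivator, was the gene that was lower in the early library, at 149, 71.8, and 82.4 CPM. Free RNA from other cells bears on these values: in T cells, which should lack the gene in mice, *H2-Aa* had 26.0, 295, and 131 CPM, so its level in T cells was also higher in the AVF libraries. All 4 class II genes measured in T cells were at least 2-fold higher in the early library (median log2 ratio 3.74), as was the 1 measured in the late library (2.95). The part of free RNA in the B cell values was not tested. The share of Ig-low B cells with a *H2-Aa* UMI was 79.9%, 100%, and 100%, and that of fibroblasts 13.1%, 25.4%, and 64.2%.

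Genes induced by B cell activation were in part higher. Of 8 measured in the early and 10 in the late library, 4 were at least 2-fold higher in each and none lower. *Cd83*, which stabilizes surface class II, had 727, 2451, and 1582 CPM, with ratios of 3.37 (2.92 to 3.89) and 2.18 (1.93 to 2.45). *Myc* had 196, 673, and 640 CPM, with ratios of 3.44 (2.59 to 4.52) and 3.27 (2.66 to 4.01), whereas in T cells *Myc* had 44.99, 30.3, and 32.1 CPM. *Cd69*, an early activation antigen, had 157, 368, and 214 CPM. *Nfkbia*, an inhibitor of NF-kB, had 392, 260, and 1269 CPM, but 158 of its 385 late UMIs were in 1 cell. *Cd86*, a costimulator, had 76.5, 89.8, and 125 CPM, and *Egr3* 248, 269, and 178, neither as much as 2-fold different.

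Receptors for migration differed one by one. *Ccr7*, which leads cells to *Ccl19* and *Ccl21a* in lymphoid tissue, had 391, 871, and 765 CPM, with ratios of 2.23 (1.76 to 2.79) and 1.96 (1.65 to 2.31). *Gpr183*, a receptor for oxysterols that positions B cells at the follicle edge, had 118, 305, and 333 CPM in Ig-low B cells and 130, 290, and 406 in T cells. *Cxcr5*, the receptor for *Cxcl13*, had 90.1, 108, and 95.6 CPM, within counting error of 1-fold in both comparisons. *Cxcr4*, the receptor for *Cxcl12*, had 661, 629, and 396 CPM. *Fcer2a* (Cd23), of follicular cells, had 202, 233, and 148 CPM, and none of 5 follicular genes was 2-fold different in either AVF library.

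Heat shock genes were in part higher. Of 8 heat shock chaperones, 4 were at least 2-fold higher in each AVF library and none lower, while in T cells 0 were higher and 1 lower. *Hspa8* had 2241, 4993, and 6303 CPM and *Dnajb1* 643, 2209, and 1787. Of 13 immediate early genes, which tissue dissociation also induces, 1 was at least 2-fold higher in the early library, a share like the 7.65% of all genes, and 4 in the late library, or 2 without the deep cells described next. *Egr1* had 508, 1078, and 1543 CPM. *Fos* had 546, 665, and 1632 CPM, but 336 of its 495 late UMIs were in 1 cell and without the deep cells its late ratio was 0.738 (0.556 to 0.965).

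A few deep cells weighed on the late library. Of 40 late Ig-low B cells, 7 had at least 10000 UMIs, against 6 of 283 in the CL and 1 of 26 in the early library. Smooth muscle genes summed to 70.2, 171, and 2420 CPM in Ig-low B cells, with 4 or 5 of 5 detected in each library, and of 301 *Tagln* UMIs in the late library 18 were in the 33 cells under 10000 UMIs. Macrophage genes summed to 234, 494, and 1006 CPM, with 7 or 8 of 8 detected. Among the 10 genes with the largest ratios in each AVF library, most had higher CPM in other barcodes than in Ig-low B cells. *Mgp* had 138 CPM in CL and 3135 in late Ig-low B cells, in 18.7% and 97.5% of cells, so not in the deep cells alone. *Cxcl1* had a UMI in 7.07%, 57.7%, and 77.5% of Ig-low B cells, and *Spp1* in 1.77%, 61.5%, and 17.5%. T cells also held more *Mgp*, at 36.3 and 833 CPM. The part of free RNA in these values was not tested. *Il10*, a regulatory cytokine, had 2, 1, and 65 UMIs, of which 64 in the late library were in cells of at least 10000 UMIs, so it was not read as a difference of B cells. Without the deep cells, a comparison added after the data were seen, the late ratios were 0.0265 for *Vpreb3*, 2.75 for *H2-Aa*, 2.95 for *Cd83*, 3.90 for *Myc*, 2.71 for *Ccr7*, and 3.16 for *Egr1*. There the activation genes at least 2-fold higher numbered 2 of 8 in the early and 4 of 10 in the late library, class II genes 7 of 10 and 4 of 9, and transcription factors at least 2-fold lower 5 of 8 and 6 of 8. When each cell was given equal weight, the late ratios of *H2-Aa* and *Cd83* were 2.88 and 2.75.

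**Figure D3:**
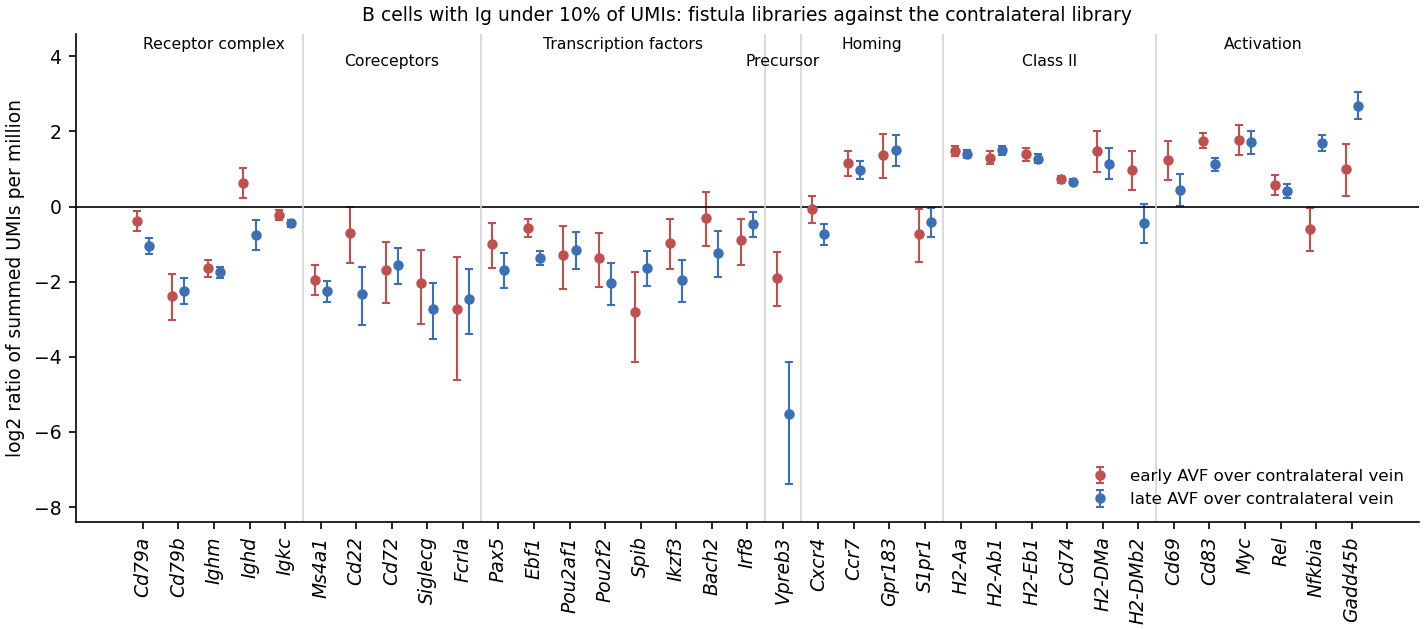
Log2 ratios of CPM in Ig-low B cells of the early and late AVF libraries against the CL library, by role of the gene, with exact 95% intervals of counting error (1 library per condition). Receptor, coreceptor, and transcription factor genes lie mostly below 0, with *Vpreb3* lowest in the late library at a ratio of 0.0219, and *H2-Aa*, *Cd83*, and *Myc* lie above 0 in both. *Cd79a*, *Cd79b*, and *Ms4a1* are genes of the rule.

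In bulk vessels, B cell genes were low and unevenly spread, and most did not pass the test between AVFs and CL veins, which does not show that their levels were equal. Here fewer cells of a type and less RNA per cell cannot be told apart. A gene was called with edgeR's quasi-likelihood test at an adjusted p under 0.01 and a log2 fold change of at least 1 in size. Of 24 B cell genes in the list, all passed the filter on low counts. In early AVFs 2 were called higher and 2 lower, where 13.9% of all 20076 genes were called higher and 5.03% lower. In mid AVFs 2 were called higher and none lower, with 11.3% and 2.74% of all genes, and in late AVFs 2 were called higher and none lower, with 11% and 2.43% of all genes. The 24 genes had a median log2 fold change of -1.08, -1.18, and 0.29 in early, mid, and late AVFs, against 0.19, 0.14, and 0.15 over all genes. At an unadjusted p under 0.05 there were 5, 4, and 7 of the 24 genes.

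Libraries of CL veins detected fewer genes than those of AVFs, which bears on all low genes. CL veins had 11958 to 18283 genes with a count and 5 to 17 of the 24 B cell genes at 0, whereas mid AVFs had 25075 to 26168 genes and 0 to 2 at 0, and late AVFs 24529 to 26771 and 0 to 1. Early AVFs spanned the range, with 17514 to 25141 genes and 0 to 15 at 0. Total counts were 20254173 to 29913427 in CL veins and 23676215 to 67457501 in AVFs. Within groups, the highest levels often fell in the same vessel: vein 31 was the CL vein with the highest level of 8 of the 24 genes, AVF 7 led the early group for 21, AVF 9 the mid group for 12, and AVF 23 the late group for 21.

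*Cd79a* shows this spread. It was 0 CPM (read counts scaled to a TMM-normalized library total of 1000000) in 3 of 7 CL veins, with a median of 0.611 and a highest value of 20.2. Early AVFs ran from 0.106 through a median of 1.26 to 15.4, mid AVFs stood at 0.692, 0.669, 2.52, 0.896, and 3.08, and late AVFs at 1.12, 2.70, 1.07, 29.98, and 7.39. The groups overlapped fully, and the log2 fold changes were -0.15 ± 1.27 (SE), -1.37 ± 1.498, and 1.06 ± 1.42, none called. *Ms4a1* was likewise 0 to 126 CPM in CL veins and 0 to 13.2, 0.502 to 2.43, and 0.560 to 25.9 CPM in early, mid, and late AVFs, with no call. *Cd79b* had a median of 0.0782 CPM in CL veins and 7.05, 5.68, and 6.66 CPM in the AVF groups, and its log2 fold change of 2.92 ± 1.08 in early AVFs missed the threshold (edgeR adjusted p = 0.0424).

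The genes called higher were *Cd22* and *Pou2af1*. *Cd22* had 4 counts in 1 CL vein and 0 in the other 6. It ran from 0.308 through a median of 5.30 to 8.98 CPM in early AVFs, and stood at 4.00, 5.71, 7.57, 5.52, and 8.20 CPM in mid and 4.80, 7.31, 3.04, 13.3, and 3.64 CPM in late AVFs. No CL vein reached any AVF. The log2 fold changes were 7.49 ± 1.12, 7.80 ± 1.15, and 7.85 ± 1.15, with edgeR adjusted p of 1.76e-05, 3.42e-05, and 3.88e-05, and the call held without any 1 library. The size of the change rested on the 4 counts of vein 632: without it the log2 fold changes were 10.26, 10.58, and 10.63, against a group at 0. In the single-cell libraries *Cd22* was not confined to B cells: macrophages held 6, 227, and 121 of its UMIs in the CL, early, and late libraries, against 253, 18, and 16 in B cells. Its bulk level therefore cannot be assigned to B cells. *Pou2af1* had 2 counts in CL veins, all in 1 vein, and medians of 0.653, 0.867, and 1.02 CPM in early, mid, and late AVFs, with 3 early AVFs at 0. Its log2 fold changes were 6.32 ± 1.503, 6.34 ± 1.54, and 6.99 ± 1.58, with edgeR adjusted p of 0.00218, 0.00342, and 0.00199, and without AVF 9 the mid comparison was not called (0.0116). Without vein 633, which held both counts, the log2 fold changes were 8.21, 8.23, and 8.88.

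The genes called lower in early AVFs were *Ighm* and *Iglc2*, and both rested on 1 vein. *Ighm* ran from 68.5 through 177 to 2925 CPM in CL veins and from 15.1 through 68.5 to 252 CPM in early AVFs, so the groups overlapped. Its log2 fold change was -2.82 ± 0.68 (edgeR adjusted p = 0.00233). Vein 28 held the 2925 CPM, and without it the log2 fold change was -1.48 and not called (0.0321). In mid AVFs *Ighm* stood at 82.7, 274, 148, 98.5, and 120 CPM and in late AVFs at 132, 350, 118, 174, and 131, all inside the CL range. *Iglc2*, a lambda light chain, was 2413 CPM in vein 28 and at most 44.1 in the other CL veins, and its log2 fold change of -6.07 ± 1.67 in early AVFs (edgeR adjusted p = 0.00681) became -1.25 without that vein (0.46), and its call held in 17 of 25 fits that left out 1 library.

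Plasma cell and switched heavy chain genes were spread over a wide range. *Igha* was 0 in 4 of 7 CL veins with a highest value of 44.0 CPM, ran from 0 through 0.643 to 79.3 CPM in early AVFs, and stood at 0.812, 3.15, 51.7, 36.6, and 610 CPM in mid and 5.11, 405, 220, 103, and 148 CPM in late AVFs. In late AVFs 4 of 5 vessels lay above every CL vein, but its log2 fold change of 4.05 ± 1.92 was not called (edgeR adjusted p = 0.148). *Jchain* had medians of 44.1, 1.65, 23.4, and 60.7 CPM in CL veins and early, mid, and late AVFs. None of 6 measured plasma cell genes was called at any time. Of 5 switched heavy chains, *Ighg3* alone was called higher, in early AVFs, where AVF 7 held 30.6 CPM and no other early AVF more than 0.662, with 0 counts in every CL vein (edgeR adjusted p = 0.00706). Of all genes, 13.9% were called higher and 5.03% lower in early, 11.3% and 2.74% in mid, and 11% and 2.43% in late AVFs. The counts in lists of 6 and 5 genes are therefore not read as results of the lists.

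**Figure D4:**
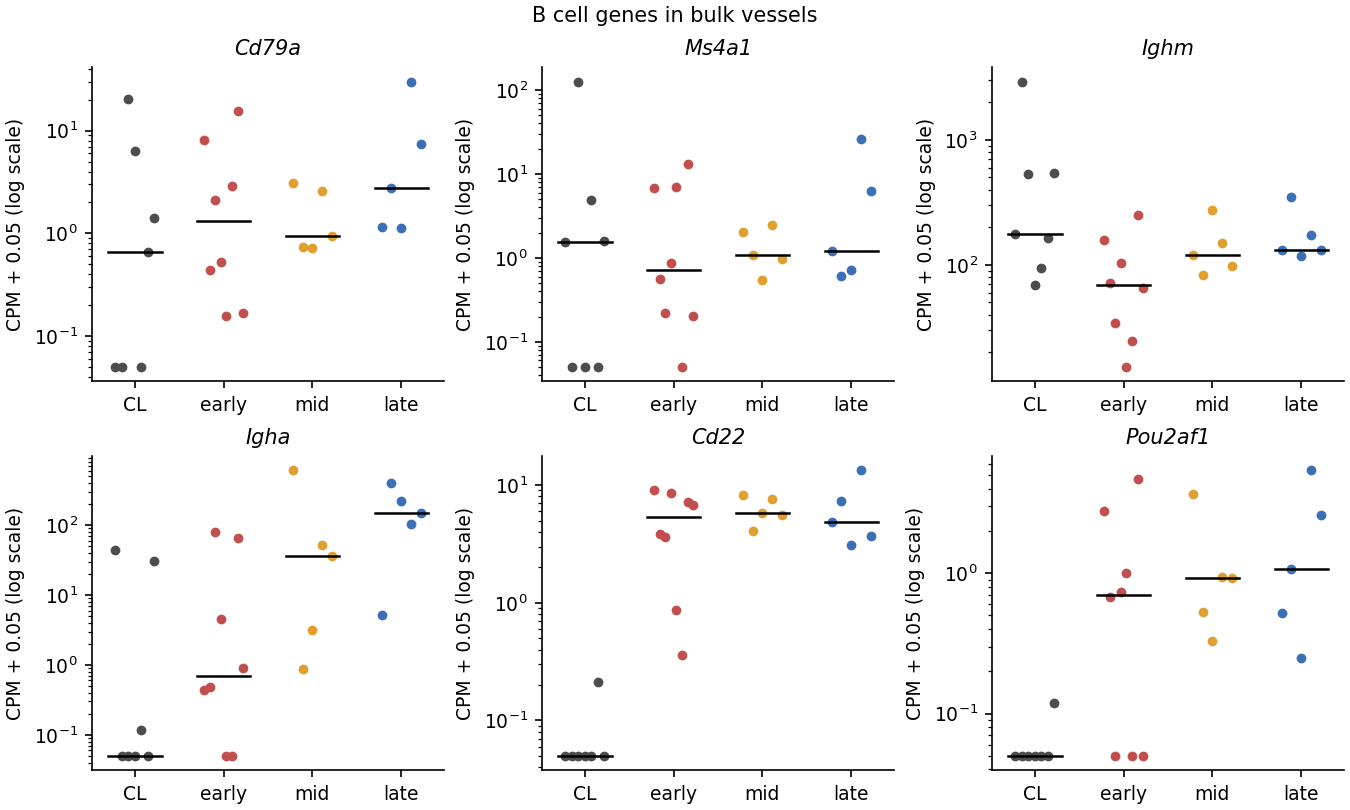
B cell and antibody genes in bulk vessels, as CPM plus 0.05 on a log scale, 1 point per vessel with the group median as a line (7 CL veins, 8 early, 5 mid, and 5 late AVFs). *Cd79a* and *Ms4a1* overlap between groups, *Ighm* is highest in 1 CL vein at 2925 CPM, and *Cd22* in every AVF lies above all CL veins.

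Signals that attract or sustain B cells were measured in the same vessels. Of 11 such genes, 9 passed the filter, and 1 was called higher and 1 lower at each time. Over all 20076 genes, 13.9%, 11.3%, and 11% were called higher in early, mid, and late AVFs, and 5.03%, 2.74%, and 2.43% lower. With 9 genes, these counts are not read as a result of the list. *Cxcl13*, the chemokine of B cell follicles and ligand of *Cxcr5*, ran from 33.8 through 134 to 336 CPM in CL veins. It ran from 0 through 14.3 to 89.3 CPM in early AVFs, and stood at 4.00, 5.27, 3.61, 1.39, and 5.69 CPM in mid and 2.96, 12.3, 2.61, 10.6, and 2.76 CPM in late AVFs. All mid and late AVFs lay below all CL veins, and among early AVFs only AVF 7 reached them. The log2 fold changes were -2.81 ± 0.80 (early), -5.27 ± 1.10 (mid), and -4.62 ± 1.06 (late), at edgeR adjusted p of 0.00847, 0.000931, and 0.00225. The mid and late calls held without any 1 library, whereas the early call held in 8 of 25 such fits. In the single-cell libraries *Cxcl13* was found in fibroblasts, at 81.0 CPM in the CL, 23.5 in the early, and 35.9 in the late library, and in macrophages at 42.4, 10.7, and 33.8 CPM. Fibroblasts held 967, 290, and 1766 of its UMIs and macrophages 112, 258, and 588.

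*Cd40lg*, by which helper T cells activate B cells, had 0 counts in all 7 CL veins. It was 0 in 4 of 8 early AVFs with a highest value of 0.545 CPM, and stood at 0.241, 0.167, 0.192, 0.462, and 1.13 CPM in mid and 0.831, 0.724, 0.468, 1.16, and 0.436 CPM in late AVFs, called higher at all 3 times (edgeR adjusted p = 0.00702, 0.00197, and 0.00112). The early call held in 16 of 25 fits that left out 1 library. Its level in T cells was 82.2, 47.3, and 95.05 CPM in the single-cell libraries, so T cells of CL veins carried it as well. *Tnfsf13b*, the survival factor Baff, had medians of 20.04, 9.76, 13.3, and 24.4 CPM and *Tnfsf13*, the related April, 0, 1.18, 1.10, and 1.16 CPM, with edgeR adjusted p of 0.0278 and 0.0125 in early AVFs. *Cxcl12* had a log2 fold change of -0.86 ± 0.28 in early AVFs (edgeR adjusted p = 0.0209). *Ccl21a* had medians of 26.0, 12.9, 105, and 176 CPM, and its log2 fold change of 2.74 ± 1.08 in late AVFs missed the threshold (edgeR adjusted p = 0.0718). *Ccl19*, *Il4*, and *Il7* were not called at any time.

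**Figure D5:**
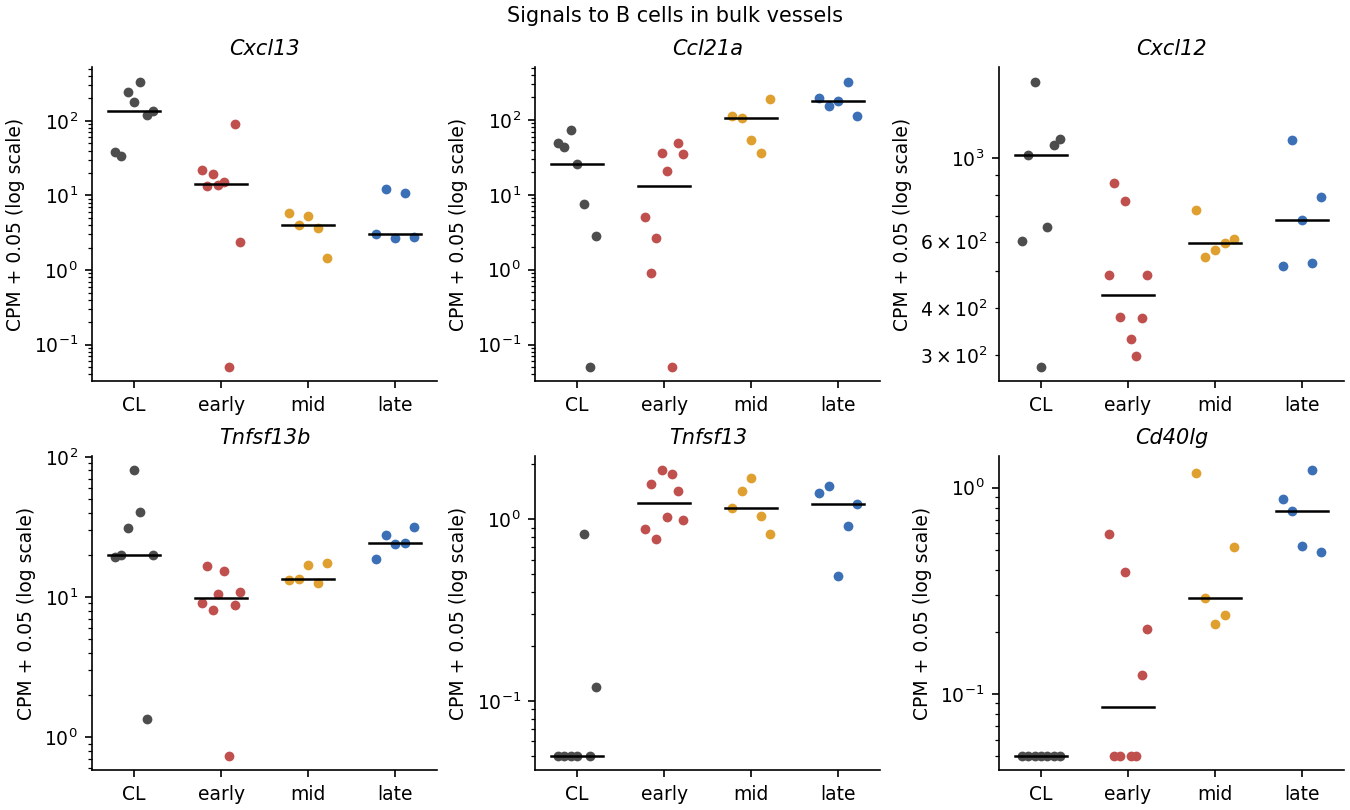
Genes of signals to B cells in bulk vessels, as CPM plus 0.05 on a log scale, 1 point per vessel with the group median as a line. *Cxcl13* lies at 33.8 to 336 CPM in CL veins and at most 12.3 CPM in mid and late AVFs, and *Cd40lg* is at 0 in all CL veins.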

How the data were processed

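Single-cell libraries were read from the deposited UMI counts per gene and barcode, which the authors made with Cell Ranger 6.0.2 (per the file headers), with mm10 and GRCm38 named in the submitters' processing notes. Bulk vessels were read from the deposited whole-number read counts per gene, which the authors left without normalization (aligner and counter: not given in the sources used here). Both the B cells and gene lists were chosen with earlier results of these data known, the 10% Ig limit was set after its values were seen, and genes were named from these lists, from the 15 genes that most separated B cells, and from the 10 largest ratios in each direction.

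UMIs were summed over cells, with exact binomial or conditional Poisson 95% intervals, and the floor for 0 counts was 3. Barcodes and genes were handled in Python 3.11.15 with scanpy 1.11.5 (Scrublet). T cells, macrophages, and fibroblasts were gated on *Cd3* genes, *Lyz2* with *C1qa* and *C1qb*, and collagen genes with *Dcn*. Bulk counts were filtered with filterByExpr, scaled by TMM, and fitted over all 25 libraries with edgeR 4.0.16 (quasi-likelihood, Benjamini–Hochberg over 20076 genes), with a biological coefficient of variation of 1.01. p-values measure the spread between vessels. The fit was tested on simulated data, for early AVFs against CL veins. It called 10 of 100 genes changed 4-fold and 96 of 100 changed 16-fold, with 0 false calls. The simulated spread was smaller than that estimated from the data, so recovery in the data may be lower. Alternatives included DESeq2 1.42.0, other filters, a term for sex, and leaving out each library. A few genes of the lists are counted with their list but not reported by name here.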

Additional observations from a re-analysis of the deposited data

Results flagged for a closer look

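In 127 groups of vessels, the highest or lowest bulk level of B cell and signal genes was set against the gap to its nearest neighbour (Dixon's 95% limit), and in 53 groups 1 vessel stood apart, always as the highest. The limit lets chance through in about 1 in 20 groups of normally distributed values, and low counts are not such values. For *Cd22* and *Pou2af1* in CL veins, for example, all other vessels were at 0, so that any count would have passed. Late AVF 23 accounted for 14 of them, early AVF 7 for 9, CL vein 31 for 7, and mid AVF 9 for 5. The genes of late AVF 23 were *Cd79a* at 29.98 CPM, *Cd79b* at 30.4, *Ms4a1* at 25.9, *Fcmr* at 9.31, *Fcrla* at 4.71, *Bank1* at 35.5, *Spib* at 13.01, *Cr2* at 15.99, *Fcer2a* at 12.7, *Tnfrsf13c* at 8.12, *Ighd* at 57.9, *Iglc2* at 20.3, *Iglc3* at 20.5, and *Vpreb3* at 2.06 CPM. Early AVF 7 stood apart for *Pax5* at 3.31 CPM, *Fcrla* at 5.10, *Cr2* at 7.61, *Tnfrsf13c* at 5.31, *Igkc* at 645, *Iglc2* at 31.0, *Iglc3* at 18.6, *Vpreb3* at 2.22, and *Cxcl13* at 89.3 CPM.

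CL vein 31 stood apart for *Cd79a* at 20.2 CPM, *Cd79b* at 7.15, *Ms4a1* at 126, *Bank1* at 76.6, *Spib* at 58.997, *Ighd* at 81.5, and *Vpreb3* at 12.3 CPM. Mid AVF 9 did so for *Fcrla* at 1.91 CPM, *Ly6d* at 19.9, *Pou2af1* at 3.61, *Igkc* at 977, and *Vpreb3* at 0.354 CPM. CL vein 633 had *Fcmr* at 3.01 CPM, *Fcrla* at 2.73, *Pou2af1* at 0.0692, and *Il7* at 15.2 CPM. CL vein 28 had *Ighm* at 2925 CPM, *Igkc* at 821, and *Iglc2* at 2413, while CL vein 35 had *Pax5* at 9.71, *Tnfrsf13c* at 1.31, and *Tnfsf13* at 0.775 CPM. The remaining vessels were CL vein 27 with *Cxcr5* at 2.97 CPM, CL vein 34 with *Blk* at 13.8, CL vein 632 with *Cd22* at 0.163, early AVF 3 with *Iglc1* at 46.4, mid AVF 13 with *Iglc2* at 100.2 and *Iglc3* at 42.2, late AVF 17 with *Ighm* at 349.97, and late AVF 19 with *Iglc1* at 185 CPM.

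Outside the B cell rule, 4 barcodes of the late single-cell library and 0 of the CL library had at least 10% of their UMIs from Ig genes. Of these, 3 held 59.2%, 56.1%, and 54.8% Ig with 0 or 1 UMI of the B cell genes, and 1 held 49.3% with 19 such UMIs and 10 UMIs of Cd3 genes.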

How the results depend on the processing

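Results for B cell shares kept the order of CL above both AVF libraries in every alternative run. Requiring at least 1 UMI gave 6.61%, 1.09%, and 1.55% (CL, early, late) and a late ratio to T cells of 0.169. Without the macrophage and fibroblast limits the early and late shares were 1.45% and 1.56%. The CL share was 3.66% without the mitochondrial limit, 6.38% with at least 500 genes, and 5.34% of barcodes under 10% hemoglobin, and among barcodes with *Ptprc* the CL and late shares were 14.1% and 1.88%. Thinned to 1000 UMIs, the shares were 4.00%, 0.301%, and 0.258% and the ratios to T cells 2.24 (CL) and 0.0753 (late). Ig-low B cells were 0.687% of the late library. Counts of genes at least 2-fold different over all B cells were 137 higher and 356 lower (early), 105 and 534 (late), and 33 and 131 (late against early). With equal weight per cell they were 351 lower (late) and 60 and 60 (late against early), and thinned, 345 lower (late) and 170 higher (late against early). With a mean of at least 50 CPM they were 243 and 829, 171 and 1266, and 65 and 357, and with at least 200 CPM 66 and 123, 51 and 180, and 57 lower (late against early). In Ig-low B cells they were 203 lower (early), 161 and 209 (late), and 145 and 56 (late against early). Without Ig and hemoglobin genes they were 258 higher (late) and 95 and 45 (late against early). In Ig-low B cells with equal weight they were 231 lower (late) and 117 and 51 (late against early), and under 10000 UMIs 230 lower (early), 200 lower (late), and 143 and 65 (late against early). The log2 ratio over all B cells turned sign in Ig-low B cells, with equal weight, and under 10000 UMIs for *Igkc* (early -0.23, -0.016, and -0.12, late -0.45, -0.14, and -0.39) and *Nr4a1* (late 0.27, 0.46, and 0.71). It turned for *Cxcr4* (early 0.10 with equal weight, 0.021 under 10000 UMIs) and *Mzb1* (late -0.12 and -0.56). The list counts without genes of the rule and the Ig-low, hemoglobin, equal-weight, 10000 UMI, and female-only alternatives were chosen after seeing the data, and Scrublet had not worked in the CL and early libraries, so removing its calls checks nothing there.

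In bulk, DESeq2 called 4 genes of the B cell list higher and 1 lower in early and 5 higher in late AVFs. The authors' filter on low counts gave 1 higher and 1 lower (early), 1 higher (mid), and 1 higher (late). Female mice alone gave 1 higher and 0 lower (early), 1 higher (mid), and 1 higher (late), and a term for sex 1 lower (early). At an adjusted p under 0.05 and by the likelihood ratio test, 1 was lower in late AVFs. Leaving out 1 library gave 2 to 4 higher and 0 to 2 lower (early), 1 to 4 higher (mid), and 2 to 4 higher (late), and 0 lower at both later times. *Iglc2* in mid AVFs turned from -3.75 to 1.13 with DESeq2 and ran from -5.37 to 1.08 without 1 library, the highest without vein 28. *Cxcl13* was called in 4 of 7 other alternatives in early and 6 of 7 in mid and late AVFs. The cause of these differences was not tested. No paired analysis was possible because the bulk groups share no replicate numbers.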

Other observations

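In Ig-high B cells, UMIs of the lambda variable gene *Iglv1* numbered 161, 325, and 4106 in the CL, early, and late libraries, in 2, 4, and 18 cells. The lambda constant genes had 157, 141, and 1390 UMIs in the same cells, against 7525, 30854, and 356839 of *Igkc*. In T cells of the CL library *Rag1* had 121 UMIs and *Dntt*, a polymerase of receptor rearrangement, had 153 UMIs in 15 cells, whereas both had 0 in T cells of the AVF libraries.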
